A study of Homo sapiens with 12 samples.

Results

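The 39 HOX genes of the A, B, C and D clusters were followed through 12 RNA-seq libraries of DAOY, an established human medulloblastoma cell line. They were taken by symbol, as every row named HOXA, HOXB, HOXC or HOXD followed by a number only, and TPM was summed for each gene identifier. This gave 40 of the 63677 identifiers in the tables, since HOXC4 stood under 2 identifiers, and left out the antisense transcripts. The libraries came from NOTCH2KO cells, NOTCH1KO cells and unedited WT cells, with 4 libraries for each genotype. Each knockout was a CRISPR/Cas9-edited line that lacked the NOTCH2 or the NOTCH1 receptor, and each genotype was represented by a single line. The cells of every genotype were cultured on plates coated with Jagged1, a Notch ligand, or on Fc as the control protein. On each plate they received either DAPT for 12 h, an inhibitor of γ-secretase that prevents release of the active Notch fragment, or DMSO as the vehicle. Each combination of genotype, plate and drug was sequenced once, so no culture was replicated within a genotype.

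HOX genes encode homeodomain transcription factors that give cells their position along the body axis. Within each cluster the genes lie in the order in which they act, from low-numbered genes that pattern the hindbrain and neck to high-numbered genes that pattern the trunk, the limbs and the genital region, and genes with the same number in different clusters are paralogues. Polycomb proteins keep the clusters silent and Trithorax-type proteins keep them active, and retinoic acid switches on their low-numbered ends during development. The forebrain, the midbrain and the anterior cerebellar territory develop without HOX expression. Values below are TPM, a transcript abundance scaled for gene length and for the total of its library, and the 4 values of a genotype are always given in the order Jagged1 with DAPT, Jagged1 with DMSO, Fc with DAPT and Fc with DMSO.

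The sequences at the starts of the genes on which the comparisons turned were read from RefSeq promoter windows of the GRCh38.p14 build, each running from 250 bases before to 50 bases after an annotated start. The tables held 27 windows for 20 of the 39 genes. HOXA3 had 7 of them, whose outermost members lay 38741 bases apart on the minus strand, and HOXC4 and HOXC5 shared a window. The letters TGGGAA, the core bound by CSL, the DNA-binding partner of Notch, were searched on both strands and occurred in 1 of the 27 windows (3.70%), at base 184 of HOXA4, and in 24.03% of the 35116 windows of all genes. ACGTG or GCGTG, the core bound by HIF factors under hypoxia, occurred on either strand in 19 of 27 windows (70.4%) and in 48.4% of all windows, and TATAAA, on either strand, in 5 of 27 (18.5%) and in 11.5%. The CSL core overlapped neither of the other motifs in the windows shown. HOX windows held a median of 22 CG dinucleotides, and all windows 14. Shown in lower case with those 3 motifs in capitals are the outermost HOXA3 windows (chr7:27152534-27152833 and chr7:27113793-27114092, minus strand), HOXA4 (chr7:27130708-27131007, minus strand), HOXA11 (chr7:27185183-27185482, minus strand) and the window shared by HOXC4 and HOXC5 (chr12:54016638-54016937, plus strand). They were chosen because HOXA3 and HOXC4 had the most variable values among tested HOX identifiers, HOXA11 was lower in NOTCH1KO than in either other genotype in every fit that left out 1 library, and HOXA4 carried the only CSL core found. A match of letters is a description of the window and not a measurement of binding.
HOXA3, upstream window: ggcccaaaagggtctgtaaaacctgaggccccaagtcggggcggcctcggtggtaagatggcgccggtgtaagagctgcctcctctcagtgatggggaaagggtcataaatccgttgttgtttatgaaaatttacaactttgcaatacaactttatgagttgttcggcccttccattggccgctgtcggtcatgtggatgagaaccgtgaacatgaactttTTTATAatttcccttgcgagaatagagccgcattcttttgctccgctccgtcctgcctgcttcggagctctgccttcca
HOXA3, downstream window: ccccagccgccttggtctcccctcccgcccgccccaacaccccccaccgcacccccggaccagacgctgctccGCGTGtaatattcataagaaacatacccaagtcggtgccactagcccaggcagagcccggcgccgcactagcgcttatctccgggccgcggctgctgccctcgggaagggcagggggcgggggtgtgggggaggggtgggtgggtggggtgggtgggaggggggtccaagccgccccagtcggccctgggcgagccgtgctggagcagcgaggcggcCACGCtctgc
HOXA4: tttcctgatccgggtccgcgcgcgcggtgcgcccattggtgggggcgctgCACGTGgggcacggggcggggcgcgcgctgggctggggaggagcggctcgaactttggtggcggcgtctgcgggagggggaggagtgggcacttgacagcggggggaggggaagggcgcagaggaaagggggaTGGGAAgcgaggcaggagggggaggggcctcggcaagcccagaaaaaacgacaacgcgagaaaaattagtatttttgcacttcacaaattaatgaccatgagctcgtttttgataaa
HOXA11: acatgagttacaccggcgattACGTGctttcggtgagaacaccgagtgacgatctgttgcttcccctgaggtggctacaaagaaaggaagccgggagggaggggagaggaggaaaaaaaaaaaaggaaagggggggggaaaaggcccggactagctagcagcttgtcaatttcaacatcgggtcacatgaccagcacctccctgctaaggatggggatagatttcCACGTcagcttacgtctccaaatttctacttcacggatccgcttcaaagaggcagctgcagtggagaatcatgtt
HOXC4 and HOXC5: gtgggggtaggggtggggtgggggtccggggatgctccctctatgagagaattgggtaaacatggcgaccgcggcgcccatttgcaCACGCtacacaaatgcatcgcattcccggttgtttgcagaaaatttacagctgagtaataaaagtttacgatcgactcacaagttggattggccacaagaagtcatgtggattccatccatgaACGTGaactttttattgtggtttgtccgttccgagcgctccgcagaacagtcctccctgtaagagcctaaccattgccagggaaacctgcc

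DAOY cells expressed all 4 clusters along most of their length. Of the 40 identifiers, 14 had a mean of at least 10 TPM over the 12 libraries, 22 had a mean from 1 to 10 TPM, and 4 were below 1 TPM. The HOXA cluster gave the largest summed level, 198 TPM over 11 identifiers, followed by HOXC with 98.4, HOXB with 83.9 and HOXD with 76.3 TPM. Both ends of the clusters were represented. At the low-numbered end, HOXA2, a patterning gene of the hindbrain, averaged 19.0 ± 2.64 TPM (SD, n = 12). At the high-numbered end, HOXD13, which shapes the digits, averaged 19.9 ± 2.02 TPM. The highest single level was that of HOXC10, a lumbar and hindlimb gene, at 47.2 ± 10.7 TPM. HOXA4 followed with 41.1 ± 11.3, HOXA7 with 38.1 ± 4.38, HOXB7 with 32.9 ± 4.84 and HOXA10 with 32.4 ± 4.52 TPM, and in this order HOXA7 and HOXB7 were the neighbours that differed by more than the SD of either, while the others lay within an SD of each other. HOXC10 stood at the 75.1th percentile of the mean levels of 17621 genes. Levels did not run evenly along a cluster, and high and low genes alternated. Between HOXA7 and HOXA10, for example, HOXA9 averaged 1.55 ± 0.373 TPM.

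**Figure D1:**
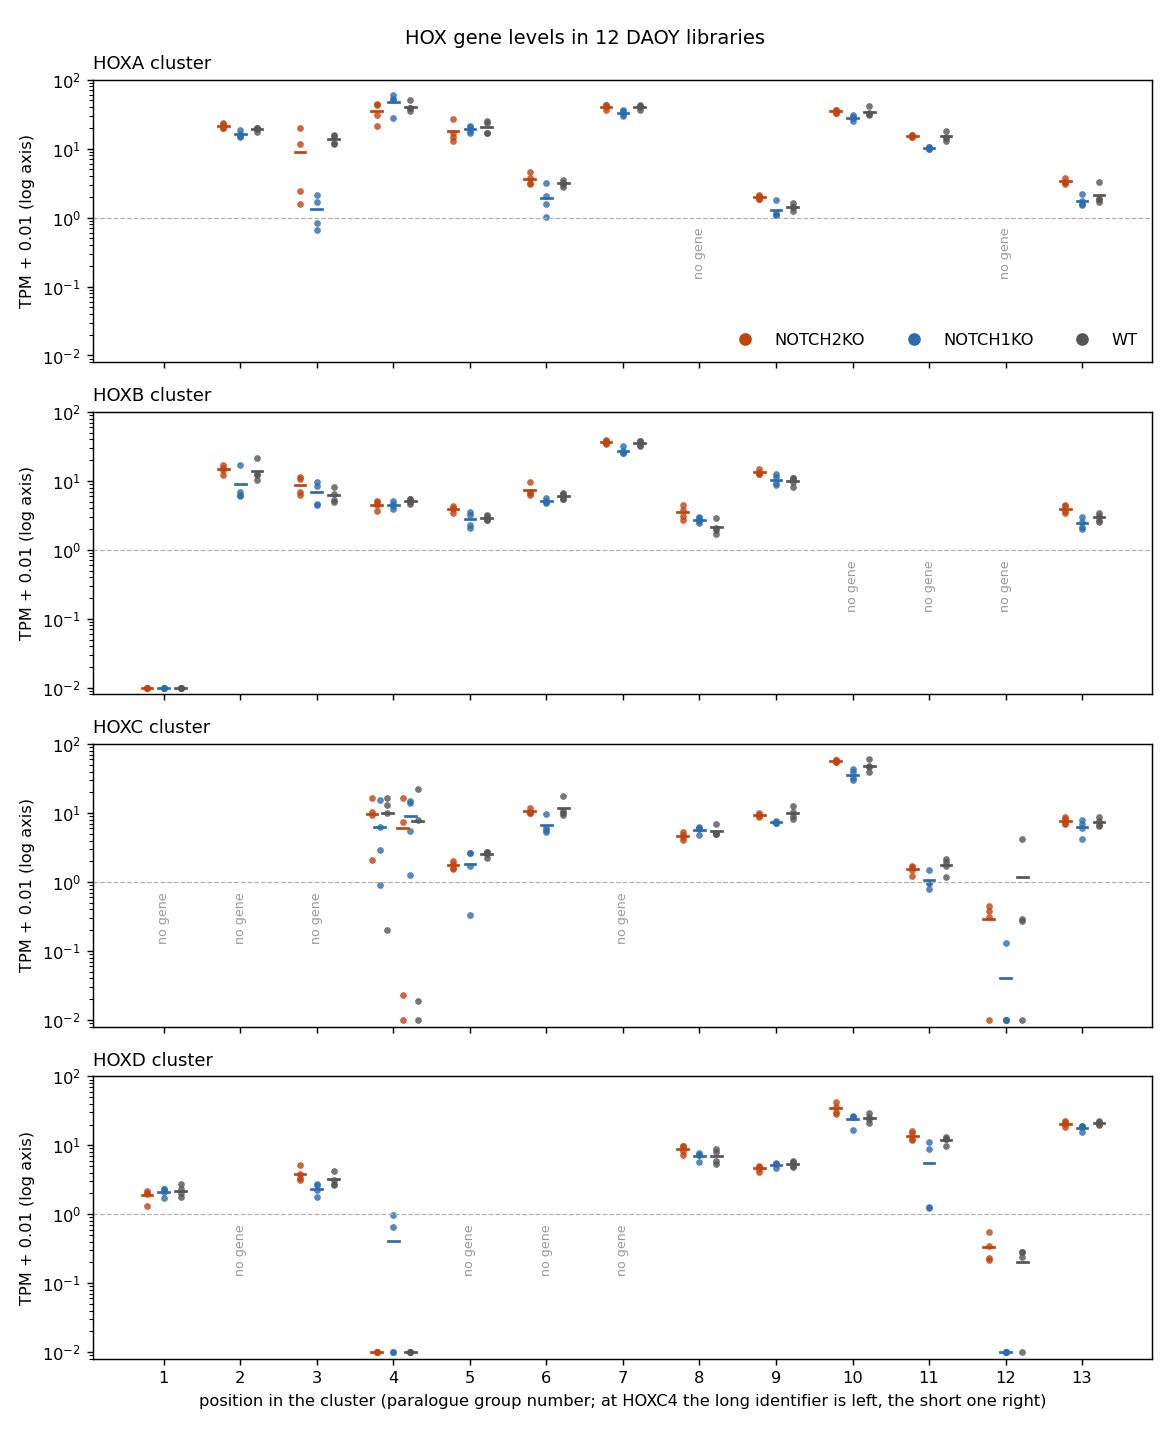
TPM plus 0.01 on a log axis for the HOX identifiers reported here, by their number in the cluster, in the A, B, C and D clusters from top to bottom. Each point is 1 library and each short bar the mean of 4 libraries, with NOTCH2KO left, NOTCH1KO in the middle and WT right, and the dashed line marks 1 TPM. HOXB1 lies at 0 in all 12 libraries, while the HOXA3 and HOXC4 points spread over wide ranges, from 0.649 to 20.2 TPM for HOXA3.

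4 genes had a mean below 1 TPM and were not tested. HOXB1, which patterns a hindbrain segment, was listed at 0 in all 12 libraries, and its neighbour HOXB2 was among the better expressed HOXB genes. HOXD4 was listed at 0 in 10 libraries and at 0.650 and 0.952 TPM in the NOTCH1KO libraries with DMSO on Jagged1 and on Fc. HOXC12 reached 4.14 TPM in the WT library with DAPT on Fc and stayed at or below 0.441 TPM in the other 11. HOXD12 ranged from 0.206 to 0.537 TPM in NOTCH2KO libraries, was listed at 0 in all 4 NOTCH1KO libraries, and lay between 0 and 0.277 TPM in WT libraries. A read in a 1 kb transcript was worth between 0.0947 and 0.117 TPM, so HOXD12 and HOXD4 rested on a few reads.

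Libraries held between 18.3 and 22.4 M reads, and each TPM in a 1 kb transcript stood for 8.55 to 10.6 reads, as worked out from coverage and FPKM. Of the 40 HOX identifiers, 33 to 37 reached 1 TPM in each library. NOTCH1 RNA averaged 0.565 ± 0.249 TPM in NOTCH1KO libraries and 3.19 ± 0.337 TPM in WT libraries, and NOTCH2 RNA 50.7 ± 7.95 TPM in NOTCH2KO libraries and 80.7 ± 9.56 TPM in WT libraries (SD, n = 4 each), so each targeted gene was lower in its own line. Cerebellar lineage genes were mixed, with ZIC1 between 4.40 and 18.8 TPM, while ATOH1, the defining gene of granule precursors, did not exceed 0.252 TPM and GABRA6, of mature granule neurons, was at 0 throughout. Of the 12 blood and endothelial markers, 2 averaged at least 1 TPM and PTPRC was at 0. In bulk RNA, fewer cells of a type and less RNA per cell cannot be told apart. The median of log2(TPM + 1) over all tested genes was 0.15 higher in NOTCH2KO than in NOTCH1KO libraries. It was 0.10 higher in NOTCH2KO than in WT, and 0.05 lower in NOTCH1KO than in WT. The genotype differences and p-values below are not corrected for this shift, except where median-centred libraries are named.

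To ask whether the loss of either receptor changed the HOX clusters, the genotypes were compared over the 4 cultures with limma on log2(TPM + 1), with genotype and culture as additive terms and p-values adjusted over all 17621 genes. A gene passed at an adjusted p below 0.05. With 1 line per genotype and 1 library per culture, these p-values measure the spread between libraries, and an effect of the deletion and a difference between the lines cannot be told apart. The clearest difference was between the knockouts. 18 of the 36 tested HOX identifiers were higher in NOTCH2KO than in NOTCH1KO and 0 were lower, where 19.8% of all genes were higher and 11.9% lower. 9 of 11 identifiers passed in HOXA, 5 of 9 in HOXB, 1 of 9 in HOXC and 3 of 7 in HOXD. The median log2 difference was 0.37 over the HOX identifiers and 0.07 over all genes, and 29 of 36 were positive. By position, 4 of 11 identifiers passed at numbers 1 to 4, 5 of 11 at numbers 5 to 8, and 9 of 14 at numbers 9 to 13. The summed level of all HOX genes lay between 478 and 538 TPM in NOTCH2KO, between 361.4 and 422 TPM in NOTCH1KO, and between 449.8 and 487 TPM in WT libraries. NOTCH1KO libraries thus held the lowest sums, without overlap with either other genotype.

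The size of this count depended on scaling and on single libraries. With each library centred on its median, 6 of 36 HOX identifiers were higher in NOTCH2KO than in NOTCH1KO (HOXA11, HOXA13, HOXB7, HOXB13, HOXC10 and HOXD11) and 2 were lower (HOXA4 and HOXC8). In that fit 2403 of all 17621 genes were higher, a share near that of the HOX identifiers, and 3600 were lower. The median over HOX identifiers was 0.22. The share of higher among all calls was 40.03%, against 62.5% without centring. Leaving out 1 library gave 5 calls without the NOTCH1KO library on Jagged1 with DMSO and 11 without that on Fc with DMSO. Of all 17621 genes, 2854 and 2879 were higher in these fits. Without the NOTCH1KO library on Jagged1 with DMSO, the HOX share therefore did not exceed that of all genes. Among the NOTCH2KO libraries, leaving out 1 gave 9 and 7 calls without those on Jagged1 (DAPT and DMSO) and 10 and 8 without those on Fc (DAPT and DMSO). In the same order 2756, 2723, 2732 and 2666 of all genes were higher. HOXA2, HOXA11, HOXA13, HOXB7 and HOXC10 passed in each of the 12 fits that left out 1 library, and the other 13 genes lost their call in 3 to 10 of them.

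The HOX genes that passed against WT were lower in NOTCH1KO and higher in NOTCH2KO. In NOTCH1KO cells 6 HOX genes fell (HOXA3, HOXA10, HOXA11, HOXB7, HOXC6 and HOXC9) and 0 rose, where 12.8% of all genes fell and 10.7% rose. This share, 6 of 36, was near the background. The median log2 difference was -0.22, against 0.00 over all genes, and 28 of 36 values were negative. In NOTCH2KO cells 2 identifiers rose, HOXB9 among them, and 0 fell, where 12.0% of all genes rose and 7.35% fell, with a median of 0.09 over HOX identifiers and 0.06 over all genes. With median-centred libraries the NOTCH2KO median was -0.005, with 18 of 36 values positive, and the NOTCH1KO median -0.16. With coverage, the mean read depth per base scaled between libraries, in place of TPM, HOXA4 rose in NOTCH1KO. These 3 comparisons share libraries and are not independent of each other. HOXA3 and HOXA11 kept their fall in NOTCH1KO in every fit that left out 1 library, whereas HOXA10 lost its call in 11 of the 12 fits and HOXB7 in 4 for NOTCH1KO, and HOXB9 in 5 for NOTCH2KO. The NOTCH1KO count was 2 without the NOTCH1KO library on Jagged1 with DMSO or the WT library on Fc with DAPT. It was 3 without the NOTCH1KO library on Fc with DAPT, the WT library on Jagged1 with DMSO, or the NOTCH2KO library on Fc with DMSO, Fc with DAPT or Jagged1 with DAPT. The NOTCH2KO count was 1 without the NOTCH2KO library on Fc with DMSO or on Jagged1 with DMSO, or the WT library on Fc with DAPT. Without the NOTCH2KO library on Fc with DAPT it was 1 higher and 1 lower.

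**Figure D2:**
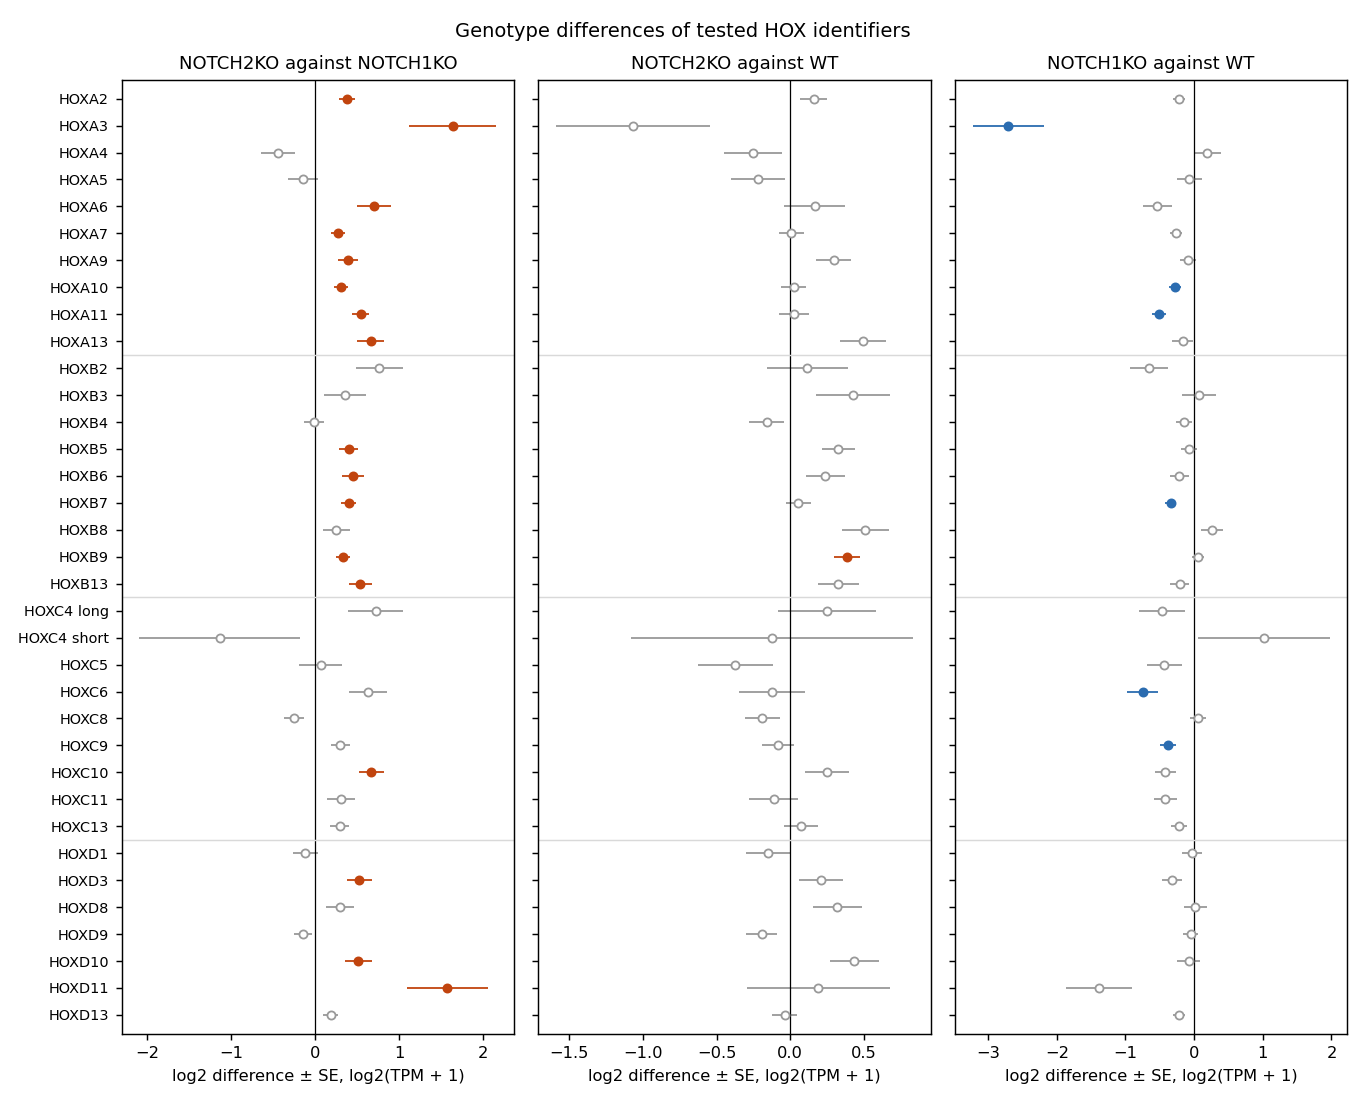
Log2 difference ± SE of 35 tested HOX identifiers on the log2(TPM + 1) scale, for NOTCH2KO against NOTCH1KO (left), NOTCH2KO against WT (middle) and NOTCH1KO against WT (right), each panel with its own x axis. Filled points passed at an adjusted p below 0.05, orange for higher and blue for lower, without median-centring of the libraries. The left panel holds 17 filled points, all to the right of 0, the middle panel 1 to the right, and the right panel 6 to the left.

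In the low-numbered part of HOXA, the knockouts differed for HOXA2 and HOXA3. HOXA2, which sets the identity of a pharyngeal arch, had 23.3, 22.8, 19.7 and 20.3 TPM in NOTCH2KO, 18.8, 14.8, 16.5 and 15.2 TPM in NOTCH1KO, and 19.7, 19.2, 17.5 and 20.1 TPM in WT libraries. NOTCH2KO and NOTCH1KO did not overlap (0.38 ± 0.09, adjusted p = 0.0144), while the WT values overlapped both. HOXA3, a gene that patterns the pharyngeal arches and their glands, had 11.7, 2.38, 20.2 and 1.56 TPM in NOTCH2KO, 1.68, 0.649, 0.815 and 2.10 TPM in NOTCH1KO, and 15.0, 11.6, 15.9 and 12.1 TPM in WT libraries. It was low in all NOTCH1KO libraries, without overlap with WT (-2.70 ± 0.52, adjusted p = 0.00828), and in NOTCH2KO it was high with DAPT and low with DMSO on either plate, so that its NOTCH2KO values overlapped both other groups (1.64 ± 0.52, adjusted p = 0.0430, against NOTCH1KO).

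The middle HOXA genes, which act in the neck and upper trunk, moved unequally. HOXA4, a neck patterning gene, had the highest HOXA level with 21.5, 44.7, 30.9 and 42.4 TPM in NOTCH2KO, 50.05, 53.1, 27.9 and 60.3 TPM in NOTCH1KO, and 38.3, 38.4, 35.1 and 50.3 TPM in WT libraries, and the groups overlapped (-0.45 ± 0.20, adjusted p = 0.125, for NOTCH2KO against NOTCH1KO). Its lower level in NOTCH2KO than in NOTCH1KO passed with median-centred libraries (-0.60 ± 0.19, adjusted p = 0.0434) and with coverage in place of TPM (-0.51 ± 0.07, adjusted p = 8.67e-04). With coverage it was also higher in NOTCH1KO than in WT (0.43 ± 0.07, adjusted p = 0.00288). HOXA6 had 3.22, 4.51, 3.11 and 3.74 TPM in NOTCH2KO, 2.05, 1.00, 1.56 and 3.16 TPM in NOTCH1KO, and 2.80, 3.51, 3.12 and 3.04 TPM in WT libraries. It was higher in NOTCH2KO than in NOTCH1KO in 4 of 4 cultures (0.70 ± 0.21, adjusted p = 0.0321), although the NOTCH1KO library on Fc with DMSO reached into the NOTCH2KO range. HOXA7 had 40.1, 43.6, 36.1 and 42.4 TPM in NOTCH2KO, 35.7, 31.9, 29.9 and 36.0 TPM in NOTCH1KO, and 36.8, 41.4, 40.04 and 42.8 TPM in WT libraries. Each NOTCH2KO value exceeded every NOTCH1KO value (0.27 ± 0.09, adjusted p = 0.0388), with NOTCH1KO also below WT but short of the threshold (-0.27 ± 0.09, adjusted p = 0.0535). HOXA5, the remaining gene of this stretch, ranged from 12.7 to 26.9 TPM and passed in no comparison.

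The 4 high-numbered HOXA genes, which pattern the lower trunk, the limbs and the reproductive tract, were all higher in NOTCH2KO than in NOTCH1KO. HOXA11, needed for the forearm and the uterus, had 14.5, 15.0, 15.7 and 15.9 TPM in NOTCH2KO, 10.4, 9.90, 9.89 and 10.46 TPM in NOTCH1KO, and 18.3, 13.1, 14.3 and 14.7 TPM in WT libraries. The NOTCH1KO libraries lay tightly together at 10.2 ± 0.318 TPM (SD, n = 4), below every other library, and the difference was 0.54 ± 0.10, adjusted p = 0.00477, between NOTCH2KO and NOTCH1KO and -0.52 ± 0.10, adjusted p = 0.00869, between NOTCH1KO and WT. HOXA10, a gene of the lumbar spine and the uterus, had 32.9, 36.7, 33.1 and 36.6 TPM in NOTCH2KO, 28.5, 30.4, 25.2 and 28.1 TPM in NOTCH1KO, and 33.0, 42.2, 30.7 and 32.1 TPM in WT libraries. NOTCH1KO again overlapped neither NOTCH2KO (0.30 ± 0.08, adjusted p = 0.0255) nor WT (-0.28 ± 0.08, adjusted p = 0.0437), but with coverage in place of TPM the NOTCH2KO minus NOTCH1KO difference was -0.05 (adjusted p = 0.905). HOXA13, which shapes the hand and foot plates, had 3.31, 3.71, 3.09 and 3.29 TPM in NOTCH2KO, 1.75, 1.55, 2.21 and 1.54 TPM in NOTCH1KO, and 1.82, 3.23, 1.82 and 1.69 TPM in WT libraries. NOTCH2KO and NOTCH1KO did not overlap (0.66 ± 0.16, adjusted p = 0.0134), and of the WT libraries 1, on Jagged1 with DMSO, reached the NOTCH2KO range. HOXA9, known for its part in leukaemia, was low throughout with 1.86, 1.83, 2.09 and 2.04 TPM in NOTCH2KO, 1.07, 1.17, 1.79 and 1.06 TPM in NOTCH1KO, and 1.23, 1.396, 1.63 and 1.403 TPM in WT libraries. Its NOTCH2KO values exceeded all others (0.39 ± 0.12, adjusted p = 0.0328).

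In HOXB, the 5 genes that differed between the knockouts were HOXB5, HOXB6, HOXB7, HOXB9 and HOXB13. HOXB7, a trunk gene with the highest HOXB level, had 38.8, 37.5, 35.2 and 33.9 TPM in NOTCH2KO, 32.0, 25.3, 25.4 and 26.9 TPM in NOTCH1KO, and 37.4, 31.8, 37.8 and 32.9 TPM in WT libraries. NOTCH2KO lay above NOTCH1KO without overlap (0.40 ± 0.09, adjusted p = 0.00913), and NOTCH1KO fell relative to WT (-0.34 ± 0.09, adjusted p = 0.0229), where the highest NOTCH1KO value just exceeded the lowest WT value. HOXB9, which acts in the thoracic region, had 13.2, 12.4, 15.0 and 12.4 TPM in NOTCH2KO, 11.4, 8.60, 12.4 and 9.22 TPM in NOTCH1KO, and 10.9, 8.24, 10.98 and 9.61 TPM in WT libraries. NOTCH2KO was higher than NOTCH1KO (0.33 ± 0.09, adjusted p = 0.0219) and than WT (0.39 ± 0.09, adjusted p = 0.0182), and its lowest value lay just above the highest of theirs. HOXB13, a prostate and tail gene at the far end of the cluster, had 4.45, 4.36, 3.59 and 3.37 TPM in NOTCH2KO, 2.96, 2.16, 1.999 and 2.53 TPM in NOTCH1KO, and 2.53, 3.44, 3.05 and 2.73 TPM in WT libraries. The knockouts did not overlap (0.54 ± 0.14, adjusted p = 0.0178), and WT overlapped both. HOXB5 had 3.88, 3.40, 3.99 and 4.32 TPM in NOTCH2KO, 2.27, 2.05, 3.51 and 3.21 TPM in NOTCH1KO, and 2.72, 2.68, 3.17 and 3.06 TPM in WT libraries, and HOXB6 had 6.94, 9.72, 6.77 and 6.17 TPM in NOTCH2KO, 5.04, 4.74, 4.95 and 5.56 TPM in NOTCH1KO, and 5.49, 6.54, 5.54 and 6.66 TPM in WT libraries. NOTCH2KO was higher than NOTCH1KO in 4 of 4 cultures for each (0.40 ± 0.11, adjusted p = 0.0283, for HOXB5 and 0.45 ± 0.13, adjusted p = 0.0308, for HOXB6), with overlap for HOXB5 alone. On scaled coverage HOXB6 was 4.49 in NOTCH2KO and 4.64 in NOTCH1KO on Jagged1 with DMSO. Its order in that culture and its lack of overlap therefore did not hold on that scale.

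The hindbrain gene HOXB2, second in level within its cluster, had 12.1, 14.4, 17.2 and 15.5 TPM in NOTCH2KO, 6.82, 6.03, 17.0 and 6.25 TPM in NOTCH1KO, and 10.1, 12.5, 12.0 and 21.3 TPM in WT libraries. The NOTCH1KO values were low except for a single library, with DAPT on Fc, and no genotype difference passed (0.77 ± 0.28, adjusted p = 0.0653, for NOTCH2KO against NOTCH1KO). HOXB3 ranged from 4.499 to 11.4 TPM, HOXB4 from 3.604 to 5.50 and HOXB8 from 1.68 to 4.42, and none of the 3 passed in any comparison. For HOXB8 the NOTCH2KO minus WT difference came closest (0.51 ± 0.16, adjusted p = 0.0550). HOXB4 was among the steadiest HOX genes, with an SD of 12.4% of its mean over 12 libraries, beside a median of 24.2% over all tested genes.

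In HOXC, HOXC10 stood out. It had 58.4, 55.2, 56.0 and 59.3 TPM in NOTCH2KO, 43.2, 39.4, 31.7 and 29.7 TPM in NOTCH1KO, and 46.7, 39.7, 60.3 and 47.4 TPM in WT libraries. NOTCH2KO libraries lay close together at 57.2 ± 1.93 TPM, all above the NOTCH1KO libraries at 36.0 ± 6.36 TPM (SD, n = 4 each, 0.67 ± 0.15, adjusted p = 0.0103), and WT spread across both. HOXC6, a trunk gene, had 10.1, 10.2, 11.8 and 10.4 TPM in NOTCH2KO, 9.79, 5.99, 5.37 and 5.61 TPM in NOTCH1KO, and 9.37, 10.7, 10.1 and 17.8 TPM in WT libraries. It was lower in NOTCH1KO than in WT (-0.75 ± 0.22, adjusted p = 0.0423), with 1 NOTCH1KO library, on Jagged1 with DAPT, inside the WT range. HOXC9, which marks the thoracic spinal cord, had 8.65, 9.29, 9.88 and 9.24 TPM in NOTCH2KO, 7.34, 7.20, 7.60 and 7.24 TPM in NOTCH1KO, and 8.99, 12.5, 10.2 and 8.23 TPM in WT libraries. The NOTCH1KO values lay within 7.20 to 7.60 TPM, below all WT values (-0.38 ± 0.11, adjusted p = 0.0400). The calls of HOXC6 and HOXC9 were lost in 10 of the 12 fits without 1 library. HOXC5, HOXC8, HOXC11 and HOXC13 passed in no comparison. HOXC8 had its highest mean in NOTCH1KO, at 5.74 ± 0.657 TPM, with 4.67 ± 0.518 TPM in NOTCH2KO and 5.50 ± 0.993 TPM in WT (SD, n = 4 each).

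In HOXD, 3 genes were higher in NOTCH2KO than in NOTCH1KO. HOXD10, a lumbar gene with the highest HOXD level, had 30.5, 43.1, 28.5 and 35.4 TPM in NOTCH2KO, 16.7, 25.9, 26.1 and 26.8 TPM in NOTCH1KO, and 25.99, 21.2, 23.7 and 29.4 TPM in WT libraries. The knockouts did not overlap (0.52 ± 0.17, adjusted p = 0.0440), and a NOTCH1KO library on Jagged1 with DAPT was well below the others. HOXD11, a forearm and kidney gene that overlaps HOXD10, had 12.3, 11.9, 16.0 and 15.2 TPM in NOTCH2KO, 11.1, 1.26, 1.21 and 8.83 TPM in NOTCH1KO, and 9.87, 12.3, 12.5 and 13.3 TPM in WT libraries. NOTCH1KO split into low values on Jagged1 with DMSO and Fc with DAPT and higher values in the other cultures, and lay below NOTCH2KO in all 4 (1.58 ± 0.48, adjusted p = 0.0372). The genes share 1205 bases on the same strand, and the low HOXD10 library had the highest NOTCH1KO value of HOXD11. On scaled coverage HOXD10 was 13.4 there and 15.2 to 16.0 in the other NOTCH1KO libraries. HOXD11 kept its split on that scale, with 8.22, 1.37, 1.32 and 6.41 in NOTCH1KO. How reads in the shared bases were divided was not tested. HOXD3, at the hindbrain end, had 3.16, 3.32, 3.76 and 5.12 TPM in NOTCH2KO, 2.73, 1.78, 2.64 and 2.23 TPM in NOTCH1KO, and 2.71, 2.65, 4.24 and 3.16 TPM in WT libraries. Its knockout values did not overlap (0.53 ± 0.15, adjusted p = 0.0282). HOXD13, second in level in its cluster, had 20.1, 21.5, 22.4 and 18.4 TPM in NOTCH2KO, 19.2, 18.2, 19.0 and 15.7 TPM in NOTCH1KO, and 22.6, 22.0, 19.9 and 20.1 TPM in WT libraries. It varied least of all HOX genes, with an SD of 10.1% of its mean, and NOTCH1KO lay below all WT values without passing (-0.22 ± 0.08, adjusted p = 0.0936). HOXD1, HOXD8 and HOXD9 passed in no comparison. HOXD9 averaged 4.602 ± 0.418 TPM in NOTCH2KO, 5.19 ± 0.3999 TPM in NOTCH1KO and 5.41 ± 0.544 TPM in WT (SD, n = 4 each).

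**Figure D3:**
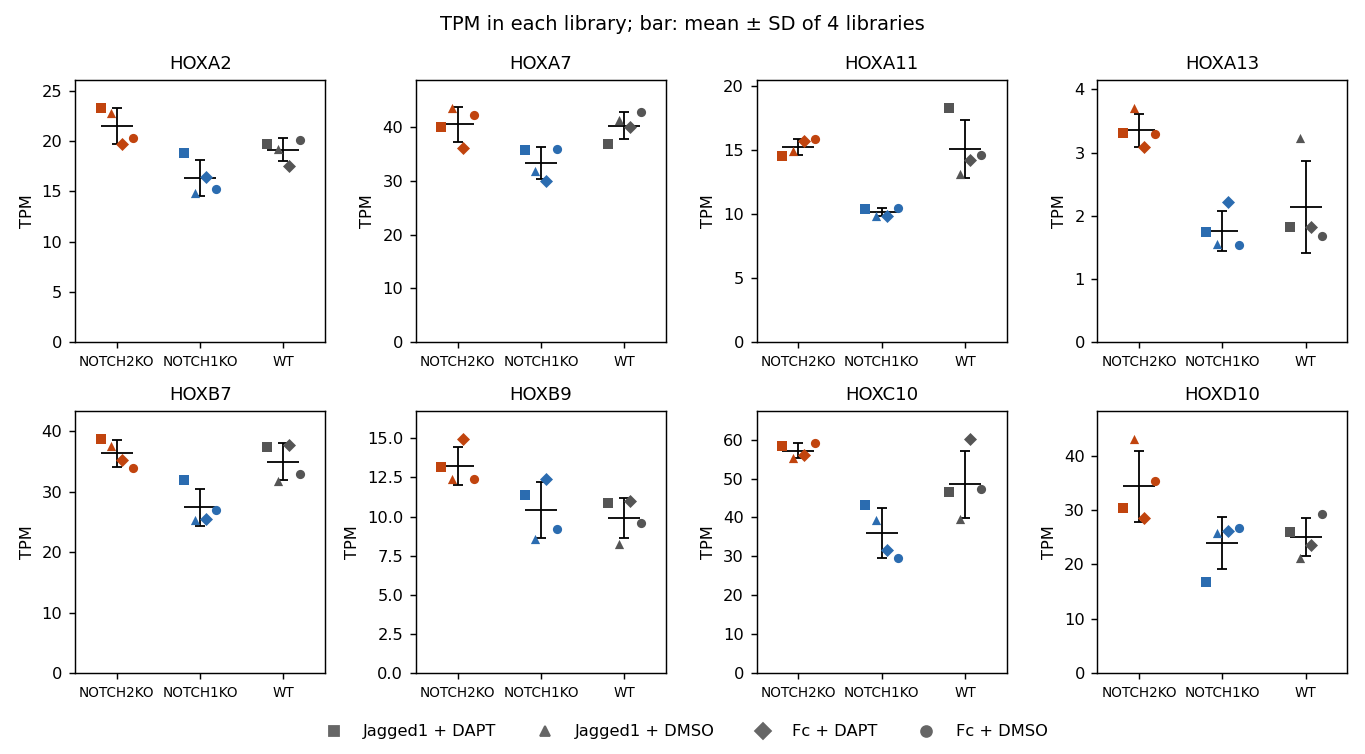
TPM of 8 HOX genes in each of the 12 libraries, with NOTCH2KO left, NOTCH1KO in the middle and WT right, and marker shapes for the 4 cultures. The horizontal bar and whiskers are the mean ± SD of 4 libraries. In all 8 panels every NOTCH2KO point lies above every NOTCH1KO point, the closest pair being HOXB9. The genes shown are all among those that passed without overlap between the knockouts, so this separation follows from the choice. WT lies near NOTCH2KO for HOXA7, HOXA11 and HOXB7.

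Several HOX transcripts share genomic sequence on the same strand, so the level of a single identifier depends on how reads were divided. In the GRCh37 coordinates of the tables, 21 of the 40 identifiers overlapped another HOX identifier on the same strand, 27 overlapped a gene on the opposite strand, and 3 overlapped none. The long HOXC4 identifier (ENSG00000198353, chr12:54410715-54449813) held 2153 of the bases of the short one (ENSG00000273266, chr12:54447661-54449814) on the same strand, all but the last base. The long identifier had 9.37, 2.10, 10.3 and 16.6 TPM in NOTCH2KO, 2.90, 0.902, 6.20 and 15.2 TPM in NOTCH1KO, and 9.89, 0.193, 13.04 and 16.5 TPM in WT libraries. The short one had 7.34, 16.7, 0 and 0.0127 TPM in NOTCH2KO, 14.1, 15.0, 1.25 and 5.50 TPM in NOTCH1KO, and 0, 22.3, 7.98 and 0.00895 TPM in WT libraries. On Jagged1 with DMSO the long identifier was low and the short one high in all 3 genotypes. The long identifier held between 0.861% and 11.1% of the summed HOXC4 level on Jagged1 with DMSO, and between 73.5% and 99.9% on Fc with DMSO, without overlap in any genotype.

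On the log2(TPM + 1) scale the Jagged1 minus Fc difference in DMSO was -3.16 ± 0.38 for the long identifier, adjusted p = 0.146, and 3.32 ± 1.10 for the short one, adjusted p = 0.385, so neither passed over all genes. With DAPT on Jagged1 the long identifier was higher, with 7.39 TPM on average, against 1.06 TPM with DMSO, a difference of 1.99 ± 0.38, adjusted p = 0.118. With coverage in place of TPM, the long identifier passed for Jagged1 against Fc in DMSO (-1.73 ± 0.16, adjusted p = 0.0229), and it passed without the NOTCH2KO library on Jagged1 with DMSO (-3.40 ± 0.44, adjusted p = 0.0444). The sum of both identifiers did not follow the plate. It averaged 19.1 ± 3.28 TPM on Jagged1 with DMSO and 17.9 ± 2.43 TPM on Fc with DMSO (SD, n = 3 each), a log2 difference of 0.08 ± 0.35. Whether the cells used other HOXC4 transcripts or the same reads were assigned otherwise cannot be told apart in these tables.

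HOXA3 raised the same question, since its span covers HOXA4, HOXA5 and HOXA6 entirely. Scaled coverage gave the same picture as TPM for HOXA3, with 13.8, 2.58, 21.5 and 2.11 in NOTCH2KO, 1.85, 0.864, 1.08 and 2.82 in NOTCH1KO, and 15.6, 15.5, 15.8 and 16.3 in WT libraries. The fall in NOTCH1KO passed on that scale too (-2.72 ± 0.56, adjusted p = 0.00992). The sum of HOXA3 and HOXA4 was 33.2, 47.1, 51.1 and 44.0 TPM in NOTCH2KO, 51.7, 53.7, 28.7 and 62.4 TPM in NOTCH1KO, and 53.3, 49.99, 50.98 and 62.5 TPM in WT libraries. Those sums overlapped between the genotypes. HOXA4 alone varied by more between NOTCH1KO libraries than the mean HOXA3 levels differed, so the overlap of the sums says nothing about HOXA3. How reads in the shared bases were assigned was not tested.

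**Figure D4:**
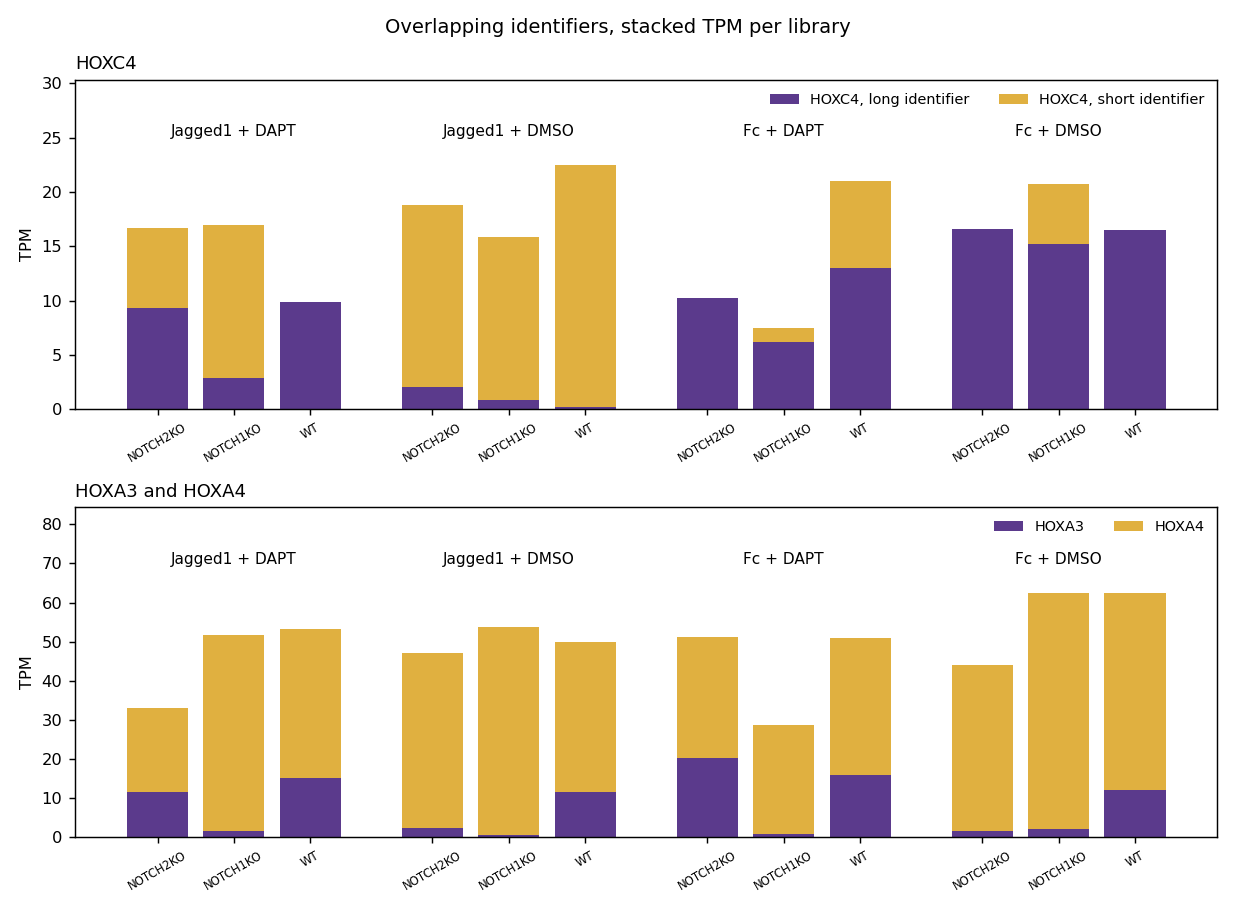
Stacked TPM of the long and short HOXC4 identifiers (top) and of HOXA3 and HOXA4 (bottom) in each library, grouped by culture and, within a culture, with NOTCH2KO left, NOTCH1KO in the middle and WT right. On Jagged1 with DMSO the HOXC4 columns are nearly all short identifier, and on Fc with DMSO mostly long, while their heights stay between 15.9 and 22.5 TPM. HOXA3 is a thin base in all NOTCH1KO columns and in the NOTCH2KO columns with DMSO.

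The cultures asked whether the HOX genes followed Notch activity within 12 h. No HOX identifier passed in any of the 4 culture comparisons by limma, over the 3 genotypes. For Jagged1 against Fc in DMSO, 0.0114% of all genes passed, for DAPT against DMSO on Jagged1 0.0284%, for DAPT against DMSO on Fc 0.0341%, and for Jagged1 against Fc in DAPT 0.00568%, so few genes of any kind passed. At an unadjusted p below 0.05, the HOX identifiers numbered 2 (both HOXC4), 2 (HOXC4 long and HOXB9), 2 (HOXA4 and HOXB9) and 1 (HOXC13) in these comparisons. Of all 17621 genes 1901, 1939, 1082 and 836 were below it, so the share of HOX identifiers exceeded that of all genes in none. Median HOX differences were -0.02, -0.0016, -0.03 and 0.02 on the log2 scale. HOXB9 was higher with DAPT than with DMSO in 3 of 3 genotypes on either plate, by 0.27 ± 0.10 in each case (adjusted p = 0.383 on Jagged1 and 0.747 on Fc). It averaged 11.8 ± 1.21 TPM with DAPT and 9.74 ± 2.30 TPM with DMSO on Jagged1, and 12.8 ± 2.03 TPM with DAPT and 10.4 ± 1.75 TPM with DMSO on Fc (SD, n = 3 each), and these groups overlapped. HOXA4 was lower with DAPT than with DMSO on Fc in 3 of 3 genotypes, averaging 31.3 ± 3.63 TPM with DAPT and 51.02 ± 8.99 TPM with DMSO (-0.68 ± 0.23, adjusted p = 0.734). On Jagged1 the same contrast gave -0.37 ± 0.23, adjusted p = 0.595.

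The response of each knockout was then set against that of WT as an interaction, with 4 residual degrees of freedom. 0 HOX identifiers passed. Among all genes 0.0397% passed for the Jagged1 response of NOTCH2KO, 0.0341% for that of NOTCH1KO, 0.0% for the DAPT response of NOTCH2KO and 0.0114% for that of NOTCH1KO. At an unadjusted p below 0.05 there were 682, 2069, 592 and 592 of all 17621 genes in these models. The HOX identifiers among them numbered 0, 1 (HOXC10), 1 (HOXA3) and 4 (HOXB2, HOXB3, HOXC5 and HOXC4 long). The largest was the DAPT response of HOXA3, which was 2.12 ± 0.55 greater in NOTCH2KO than in WT (adjusted p = 1). In NOTCH1KO the DAPT response of HOXB2 exceeded that of WT by 1.26 ± 0.39 (adjusted p = 1.00), where a single NOTCH1KO library, on Fc with DAPT, was high. The difference in Jagged1 response of HOXC10 between NOTCH1KO and WT was 0.72 ± 0.18 (adjusted p = 0.385).

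To place the clusters in their surroundings, the tested genes outside each cluster were counted by distance. Within 1 Mb, NOTCH2KO against NOTCH1KO gave 5 higher and 2 lower of 16 genes around HOXA and 5 higher and 2 lower of 30 around HOXB. Around HOXC it gave 6 higher and 4 lower of 35, and around HOXD 0 higher and 1 lower of 7. Over all genes 19.8% were higher and 11.9% lower, with a median log2 difference of 0.07. The medians of these neighbours were 0.24, 0.12, 0.04 and 0.09, beside 0.39, 0.40, 0.30 and 0.30 for the HOX identifiers themselves. Within 10 Mb the medians were 0.16, 0.12, 0.05 and 0.03 over 113, 260, 239 and 84 genes. Neighbours that moved included genes with no HOX function. SNX10, a sorting nexin near HOXA, was higher in NOTCH2KO than in NOTCH1KO (0.97 ± 0.18, adjusted p = 0.00434), as was COPZ2, a vesicle coat subunit near HOXB (1.41 ± 0.26, adjusted p = 0.00433). Near HOXC, IGFBP6, which binds insulin-like growth factors, was higher (1.354 ± 0.20, adjusted p = 0.00167), as was the retinoic acid receptor RARG (1.01 ± 0.15, adjusted p = 0.00169). MTX2, a mitochondrial outer membrane protein whose gene lies beside HOXD, was lower (-0.34 ± 0.08, adjusted p = 0.0138). IGFBP6 and RARG fell in NOTCH1KO relative to WT (-1.67 ± 0.20, adjusted p = 0.00106, for IGFBP6 and -0.54 ± 0.15, adjusted p = 0.0333, for RARG).

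**Figure D5:**
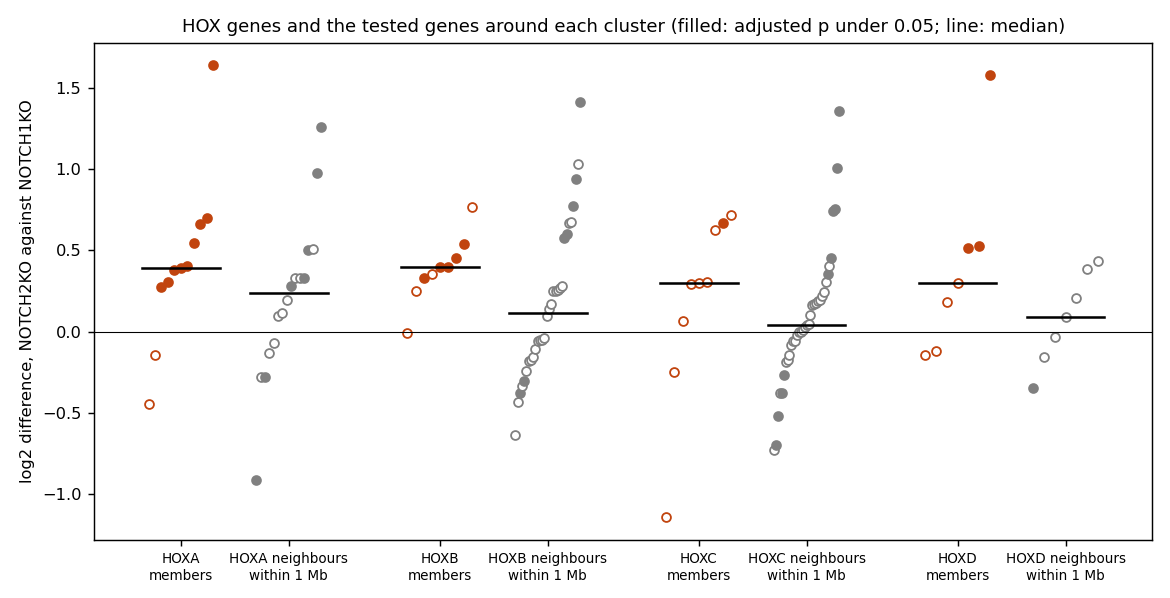
Log2 difference of NOTCH2KO against NOTCH1KO for the HOX identifiers of each cluster (orange) and for the tested genes within 1 Mb outside it (grey), each sorted by value. Filled points passed at an adjusted p below 0.05 and black lines are medians. The HOX medians lie between 0.30 and 0.40 and those of the neighbours between 0.04 and 0.24, and the neighbours spread to both sides of 0.

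The non-coding RNAs of the clusters included transcripts with other genotype patterns than the coding genes beside them. Of 29 listed, 23 were matched and 8 were tested. NOTCH2KO against NOTCH1KO gave 2 higher and 0 lower, where 19.8% of all genes were higher and 11.9% lower. NOTCH2KO against WT gave 2 higher and 0 lower, where 12.0% and 7.35% were. NOTCH1KO against WT gave 1 higher (HOTAIRM1) and 1 lower (HOTAIR), where 10.7% and 12.8% were. With 8 tested genes these counts show no shift of the list. HOTAIRM1, a long non-coding RNA of the HOXA cluster, had 45.7, 48.8, 43.2 and 48.0 TPM in NOTCH2KO, 39.5, 39.6, 48.8 and 37.4 TPM in NOTCH1KO, and 22.6, 22.3, 24.5 and 27.6 TPM in WT libraries. It was higher in both knockouts than in WT, without overlap (0.91 ± 0.11, adjusted p = 0.00126, in NOTCH2KO and 0.74 ± 0.11, adjusted p = 0.00248, in NOTCH1KO). HOXA-AS2, opposite HOXA3 and HOXA4, had 19.0, 21.6, 15.4 and 21.6 TPM in NOTCH2KO, 8.86, 8.64, 10.8 and 8.41 TPM in NOTCH1KO, and 10.8, 9.93, 8.05 and 6.12 TPM in WT libraries. Its NOTCH2KO values stood clear of the others (1.00 ± 0.17, adjusted p = 0.00347, against NOTCH1KO and 1.08 ± 0.17, adjusted p = 0.00454, against WT). HOTAIR, opposite HOXC11 and known to guide Polycomb to HOXD, was low with 2.29, 1.60, 1.51 and 2.34 TPM in NOTCH2KO, 1.20, 0.997, 0.763 and 1.15 TPM in NOTCH1KO, and 1.69, 1.97, 2.04 and 1.65 TPM in WT libraries. It fell in NOTCH1KO relative to WT (-0.49 ± 0.14, adjusted p = 0.0390). The microRNA genes of the clusters had means from 0 to 0.201 TPM in these poly-A libraries, which do not capture mature microRNAs.

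The TALE homeodomain proteins are the partners that HOX proteins bind with on DNA. Of their 10 genes, NOTCH2KO against NOTCH1KO gave 3 higher and 2 lower, where 19.8% of all genes were higher and 11.9% lower. NOTCH2KO against WT gave 2 higher and 0 lower, where 12.0% of all genes were higher and 7.35% lower, and NOTCH1KO against WT 3 higher and 1 lower, where 10.7% and 12.8% were. With so few genes these counts show no shift of the group, and the values of single members follow. PBX3 fell in NOTCH1KO (-0.997 ± 0.19, adjusted p = 0.00722), and MEIS2 rose there (0.94 ± 0.17, adjusted p = 0.00635). MEIS3 was higher in NOTCH2KO than in NOTCH1KO (1.61 ± 0.23, adjusted p = 0.00126) and WT (1.52 ± 0.23, adjusted p = 0.00303).

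The chromatin regulators of the clusters include the Polycomb repressors and the Trithorax and MLL activators. Of 26 Polycomb genes, NOTCH2KO against NOTCH1KO gave 4 higher and 2 lower, NOTCH2KO against WT 3 higher and 4 lower, and NOTCH1KO against WT 1 higher and 3 lower. The shares between the knockouts, 15.4% higher and 7.7% lower, lay below those of all genes (19.8% and 11.9%). JARID2, an accessory subunit of Polycomb complex PRC2, was lower in NOTCH2KO than in NOTCH1KO (-0.99 ± 0.13, adjusted p = 9.15e-04). EZH2, the methyltransferase of PRC2, was slightly higher in NOTCH1KO than in WT (0.29 ± 0.08, adjusted p = 0.0393). Of 21 Trithorax and MLL genes, NOTCH2KO against NOTCH1KO gave 3 higher and 0 lower, NOTCH2KO against WT 0 higher and 0 lower, and NOTCH1KO against WT 3 higher and 3 lower. Between the knockouts these were 14.3% higher and 0 lower, again below the shares of all genes. MEN1, the menin subunit of MLL complexes, was higher in NOTCH2KO than in NOTCH1KO (0.52 ± 0.11, adjusted p = 0.00684), and WDR5, a core subunit, was lower in NOTCH1KO than in WT (-0.46 ± 0.08, adjusted p = 0.00406). Of 12 boundary and cohesin genes 0 were higher and 4 lower in NOTCH2KO than in NOTCH1KO, among them the cohesin loader NIPBL (-0.65 ± 0.17, adjusted p = 0.0191), while 1 rose in NOTCH2KO and 3 in NOTCH1KO relative to WT. The 4 lower genes were 33.3% of that list, against 11.9% of all genes. Those that rose relative to WT were 8.33% of it in NOTCH2KO and 25% in NOTCH1KO. For the counts against WT of all 3 lists, 12.0% of all genes were higher and 7.35% lower in NOTCH2KO. In NOTCH1KO 10.7% of all genes were higher and 12.8% lower than in WT.

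Retinoic acid signalling, which sets the anterior limits of HOX expression in the embryo, was measured by 16 tested genes. Of 16 tested genes 7 were higher and 0 lower in NOTCH2KO than in NOTCH1KO (median 0.54), 7 higher and 2 lower than in WT (median 0.54), and NOTCH1KO against WT gave 4 higher and 4 lower (median 0.05). Over all genes the medians in that order were 0.07, 0.06 and 0.00, and the higher genes were 43.8% of the list between the knockouts, against 19.8% of all genes, and 43.8% in NOTCH2KO against WT, against 12.0%. The lower genes in NOTCH2KO against WT were 12.5%, against 7.35%. In NOTCH1KO against WT 25% were higher and 25% lower, against 10.7% and 12.8% of all genes. CRABP2, which carries retinoic acid to the nucleus, averaged 183 ± 30.3 TPM in NOTCH2KO, 89.8 ± 27.2 in NOTCH1KO and 51.1 ± 17.1 in WT (SD, n = 4 each). CYP26B1, which degrades retinoic acid, was higher in NOTCH2KO than in NOTCH1KO (1.43 ± 0.17, adjusted p = 5.49e-04), and so was ALDH1A2, which makes it (1.496 ± 0.28, adjusted p = 0.00518). RXRG, a partner of the retinoic acid receptors, fell relative to WT in NOTCH2KO (-1.16 ± 0.20, adjusted p = 0.00566) and NOTCH1KO (-1.75 ± 0.20, adjusted p = 7.88e-04). Among 7 tested upstream axial factors, EGR2, a hindbrain regulator, rose in NOTCH2KO relative to WT (1.03 ± 0.24, adjusted p = 0.0189). Their counts were 3 higher and 1 lower for NOTCH2KO against NOTCH1KO, 3 and 1 for NOTCH2KO against WT, and 1 and 1 for NOTCH1KO against WT. In that order, 19.8% of all genes were higher and 11.9% lower, 12.0% and 7.35%, and 10.7% and 12.8%.

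Genes of HOX-free head territories were expressed beside the HOX genes. Of 14 tested, 7 were higher and 0 lower in NOTCH2KO than in NOTCH1KO, 2 higher and 1 lower in NOTCH2KO than in WT, and NOTCH1KO against WT gave 0 higher and 4 lower. Between the knockouts 19.8% of all genes were higher, a smaller share than 7 of 14, and 11.9% were lower. In NOTCH2KO against WT 12.0% of all genes were higher and 7.35% lower, and in NOTCH1KO against WT 10.7% and 12.8%. The limb and target counts that follow are read against the same shares. LHX2 was lower in NOTCH1KO than in WT (-1.17 ± 0.18, adjusted p = 0.00292). Limb and posterior mesenchyme genes gave 10 higher and 1 lower of 18 in NOTCH2KO against NOTCH1KO, 5 and 1 in NOTCH2KO against WT, and 4 and 4 in NOTCH1KO against WT. The share higher between the knockouts was 55.6%. MEOX1, a somite gene, was the most changed of them in NOTCH2KO against WT (2.33 ± 0.12, adjusted p = 1.62e-05), and PRRX1, a limb mesenchyme gene, fell in NOTCH1KO (-1.71 ± 0.39, adjusted p = 0.0151) and NOTCH2KO (-1.30 ± 0.39, adjusted p = 0.0474). Of 19 reported HOX targets, NOTCH2KO against NOTCH1KO gave 11 higher and 2 lower, NOTCH2KO against WT 3 and 3, and NOTCH1KO against WT 3 higher and 9 lower. The share higher between the knockouts was 57.9%, and the share lower in NOTCH1KO than in WT 47.4%, against 12.8% of all genes. THBS2, an inhibitor of angiogenesis, was far lower in NOTCH2KO than in NOTCH1KO (-4.48 ± 0.15, adjusted p = 7.26e-07), and IGFBP1, a target in uterine cells, was higher (2.09 ± 0.18, adjusted p = 1.36e-04). VEGFA, the angiogenic factor, fell relative to WT in NOTCH2KO (-0.66 ± 0.12, adjusted p = 0.00731) and in NOTCH1KO (-1.36 ± 0.12, adjusted p = 2.47e-04).

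Marker lists of other cell types held few tested genes, and their counts are read against 19.8% higher and 11.9% lower of all genes between the knockouts, 12.0% and 7.35% in NOTCH2KO against WT, and 10.7% and 12.8% in NOTCH1KO against WT. The summed level of 10 fibroblast and mesenchymal markers lay between 5534 and 7744 TPM in NOTCH2KO, 4463 and 5710 TPM in NOTCH1KO, and 4919 and 6412 TPM in WT libraries, with 2 higher and 4 lower of 9 in NOTCH2KO against NOTCH1KO, and 1 higher and 4 lower in NOTCH2KO and 1 higher and 3 lower in NOTCH1KO against WT. The collagen gene COL3A1 and the fibroblast protease FAP fell in both knockouts, FAP most in NOTCH2KO (-2.61 ± 0.09, adjusted p = 2.25e-06). The 12 epithelial markers summed to between 691 and 814 TPM in NOTCH2KO, 589.9 and 764 TPM in NOTCH1KO, and 784 and 1045 TPM in WT libraries, with 1 higher and 1 lower of 7 in NOTCH2KO against NOTCH1KO, near the shares of all genes, 1 lower in NOTCH2KO and 2 lower in NOTCH1KO against WT, and the keratin KRT14 fell in NOTCH2KO (-2.05 ± 0.38, adjusted p = 0.00790) and in NOTCH1KO (-2.25 ± 0.38, adjusted p = 0.00468). Of 3 tested glial markers, 2 were higher in NOTCH2KO than in NOTCH1KO and in WT, among them PDGFRA, a receptor of glial precursors (1.90 ± 0.13, adjusted p = 6.08e-05, against NOTCH1KO), 1 was lower in NOTCH1KO than in WT, and SOX10 was at 0. The blood and endothelial markers summed to between 13.5 and 16.6 TPM in NOTCH2KO, 19.6 and 30.04 TPM in NOTCH1KO, and 12.1 and 18.9 TPM in WT libraries, with LCP1, an actin-bundling protein of leukocytes, lower in NOTCH2KO than in NOTCH1KO (-1.76 ± 0.16, adjusted p = 1.51e-04) and TEK, an endothelial receptor, higher (1.03 ± 0.13, adjusted p = 6.94e-04). Relative to WT 0 of the 2 tested passed in NOTCH2KO, while LCP1 rose and TEK fell in NOTCH1KO. The 21 cerebellar and neuronal markers summed to between 174 and 192 TPM in NOTCH2KO, 161 and 179 TPM in NOTCH1KO, and 137 and 166 TPM in WT libraries, with 4 higher and 3 lower of 11 in NOTCH2KO against NOTCH1KO, 2 and 0 in NOTCH2KO against WT and 3 and 1 in NOTCH1KO against WT. The part of these marker differences in the HOX differences was not tested.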

How the data were processed

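RNA was measured in 12 libraries of DAOY cells, 1 for each of 3 genotypes and 4 cultures. Per the labels, poly-A RNA was made into stranded libraries and sequenced as 51-base single reads, with bcl2fastq 2.17, CASAVA and GRCh37 named in the submitters' processing notes. For the aligner, the quantifier and the strand setting, no name is given in the sources used here. The authors deposited a table per library with TPM, FPKM and coverage (mean read depth per base, not scaled for depth) for each gene, and TPM was used as deposited, summed per gene identifier. FPKM and coverage as deposited by the authors entered only as alternatives, coverage after scaling each library by the median ratio of its coverage to TPM.

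Genes with a mean of at least 1 TPM (17621 of 63677 identifiers) were tested on log2(TPM + 1) with limma 3.58.1 in R 4.3.3 (trended, empirical Bayes), with additive terms for genotype and culture and 6 residual degrees of freedom, or 4 for interactions. Fold changes on this scale understate those of low genes. P-values were adjusted by Benjamini-Hochberg over all tested genes and passed below 0.05. The test was checked on simulated data. Tables were handled in Python 3.11.15 with pandas 2.3.3 and drawn with matplotlib 3.10.9. The alternatives were another pseudocount (0.1), filter, unit, centring, weighting or set of terms, a minimum log2 difference of 1, and each library left out in turn. The sum of the HOXC4 identifiers was added after seeing the data.

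The members and the gene lists were chosen with earlier results of these data known. Values per library were given for HOX genes that passed in any comparison and for the 2 with the highest mean in each cluster, and from each other list or set of neighbours up to 4 passing genes with the largest differences were eligible to be named. Genes measured by level alone, as lineage markers, fell outside that rule. Depth per library, derived from coverage and FPKM, was such that 1 TPM in a 1 kb transcript rested on 8.55 to 10.6 reads. Promoter windows came from RefSeq on GRCh38.p14, another build than that of the tables, and coordinates were not converted. Values of 1 HOX gene and of some genes of the other lists are not reported here by name, and these genes are counted in the totals.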

Additional observations from a re-analysis of the deposited data

Results flagged for a closer look

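In 9 of 108 groups of 4 libraries of a genotype, a HOX gene had 1 library whose gap to the nearest other exceeded Dixon's critical share of the range. Chance flags about 1 in 20 such groups where the 4 libraries are replicates. Here they were 4 different cultures, so that rate may not hold. HOXC6 was affected in all 3 genotypes, with 11.8 TPM in NOTCH2KO on Fc with DAPT (the others 10.1 to 10.4), 9.79 TPM in NOTCH1KO on Jagged1 with DAPT (5.37 to 5.99), and 17.8 TPM in WT on Fc with DMSO (9.37 to 10.7). The same NOTCH1KO library, on Jagged1 with DAPT, had low values of HOXC8, at 4.77 TPM (the others 5.95 to 6.18), and of HOXD10, at 16.7 TPM (25.9 to 26.8). The NOTCH1KO library on Fc with DAPT had high values of HOXB2, at 17.0 TPM (the others 6.03 to 6.82), and of HOXA9, at 1.79 TPM (1.06 to 1.17). The WT library on Jagged1 with DMSO had high values of HOXA13, at 3.23 TPM (the others 1.69 to 1.82), and of HOXC8, at 6.99 TPM (4.96 to 5.07). The cause of these departures was not tested.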

How the results depend on the processing

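HOX counts are given for NOTCH2KO against NOTCH1KO, NOTCH2KO against WT and NOTCH1KO against WT, where 18, 2 and 6 passed. Median-centred libraries gave 8, 1 and 3, and a log2 difference of at least 1 gave 2, 0 and 1. Coverage in place of TPM gave 6 for NOTCH2KO against WT and 1 for Jagged1 against Fc in DMSO (HOXC4, long identifier), and library weights gave 5 for NOTCH2KO against WT. Of all 17621 genes, 2707 and 3082 were higher in NOTCH2KO than in WT in these fits, against 2109 in the main fit. Those shares were near the 6 and 5 of 36 HOX identifiers. Leaving out 1 library gave from 5 to 18, from 1 to 3 and from 2 to 6 in the genotype comparisons, and from 0 to 1 for Jagged1 against Fc in DMSO. Without a filter 12, 2 and 4 of 39 tested HOX identifiers passed. With a mean of at least 5 TPM 12, 2 and 7 of 25 passed, where the main fit tested 36. FPKM, the other pseudocount, genotype as the only term and the summed HOXC4 identifiers stayed within 1.5 times each count.

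For HOXA10, NOTCH2KO against NOTCH1KO turned to -0.0456 with coverage (adjusted p = 0.905), and no other named difference changed sign. The cause of these changes was not tested. Of all genes that passed, the share that was higher was 62.5%, 61.9% and 45.5% in the same order, 40.03%, 42.9% and 56.1% with median-centred libraries, and 78.5%, 66.3% and 26.1% with the minimum difference. It was 51.8% with FPKM for NOTCH2KO against WT. Replicate libraries of a combination do not exist here, so differences between lines cannot be told apart from those between genotypes, and genes near 1 TPM rested on few reads.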
